A study of Caenorhabditis elegans with 2 samples.

Results

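The neuropeptide and insulin-like peptide genes of Caenorhabditis elegans are described here by the IRX-1 signal at their promoters in first-stage (L1) larvae. IRX-1 is a homeodomain protein. They are the protein-coding genes of the Ensembl annotation of WBcel235 whose names begin with flp-, nlp- or ins-, 140 of the 19973 protein-coding genes on the 6 nuclear chromosomes. The flp family has 31 genes, the nlp family 71 and the ins family 38. The genes were chosen by name and not by any measured value. The experiment was a chromatin immunoprecipitation with sequencing in 1 group, with 2 biological replicates and no second condition. The worms were strain OP536, genotype unc-119(tm4063) III; wgIs536, a line that stably expresses IRX-1 with a GFP and FLAG tag at its C-terminus. Hermaphrodites were bleached, synchronized by L1 starvation and taken whole 6 h after synchronization. Sheared chromatin was precipitated with an antibody against GFP, and regions were called against a control alignment.

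IRX-1 belongs to the Iroquois family. The flp genes encode FMRFamide-like peptides, the nlp genes encode a mixed set of other peptides, and the ins genes encode insulin-like peptides that act through the receptor DAF-2. Peptide precursors are cut in neurons and other secretory cells, packed into dense-core vesicles and released to act on receptors of other cells. Most of these genes are used by small, different sets of cells, and the samples were whole larvae. Strong occupancy in a few cells therefore cannot be told apart from weak occupancy in many.

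Each deposited list gives regions with a summit and a peak score, which is the authors' own value and is compared only within a list. The optimal list holds the 2445 regions that passed the authors' threshold on reproducibility, with scores from 81.4 upward. They are the 2445 regions with the highest scores in the pooled list of 28191 regions, which was called on both replicates together and reaches down to background. Replicate 1 has 30000 regions and replicate 2 has 24949, and the sequencing depth behind them is unknown. A gene was counted as having a summit when one lay in its promoter window, reaching 1000 bp upstream and 200 bp downstream from the annotated gene start. Intervals are 95% Wilson intervals over genes and cover counting error only. No test was run between families or against other genes, because genes are not replicates.

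The sequence under the strongest member region is shown first, because it is the only one well above the optimal threshold with no other coding gene start nearby. It is the optimal region of the insulin-like gene ins-39 (chrX:1344923-1345158, 236 bp, minus strand as ins-39 is read, ce11, sequence from RefSeq WBcel235), with the 11 bases centred on the summit in capitals.
ins-39: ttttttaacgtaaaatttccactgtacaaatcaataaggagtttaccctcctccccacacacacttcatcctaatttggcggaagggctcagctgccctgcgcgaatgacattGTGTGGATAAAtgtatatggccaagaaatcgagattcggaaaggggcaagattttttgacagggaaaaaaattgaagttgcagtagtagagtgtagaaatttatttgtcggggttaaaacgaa
The next sequences are the 101 bases centred on the pooled summits of the members ranked directly below the optimal threshold, for comparison with it. They are read in the direction of each gene, at chrIII:8650427-8650527 (plus strand) for flp-23, chrV:11616145-11616245 (plus strand) for nlp-24, chrV:14033120-14033220 (plus strand) for ins-10 and chrIV:7643318-7643418 (minus strand) for nlp-20. Capitals mark the word TTACA on either strand.
flp-23: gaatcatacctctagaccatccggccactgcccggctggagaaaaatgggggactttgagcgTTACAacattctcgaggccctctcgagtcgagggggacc
nlp-24: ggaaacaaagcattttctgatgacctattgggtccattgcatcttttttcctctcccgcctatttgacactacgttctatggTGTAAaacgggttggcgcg
ins-10: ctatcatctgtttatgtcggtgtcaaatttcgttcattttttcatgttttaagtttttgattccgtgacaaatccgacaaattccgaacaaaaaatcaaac
nlp-20: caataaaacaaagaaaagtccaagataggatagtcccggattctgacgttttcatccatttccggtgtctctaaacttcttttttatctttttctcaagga
The GC content of the 101 bases at the summit was 46.5% for ins-39, 57.4% for flp-23, 45.5% for nlp-24, 31.7% for ins-10 and 35.6% for nlp-20. The mean over the 1414 optimal summits in all promoter windows was 45.5%, and over all promoter-window summits below the threshold it was 35.5%. Summits of ins-39, flp-23 and nlp-24 were thus at or above the mean of optimal summits, and those of ins-10 and nlp-20 were near or below the mean of weaker ones.

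Peptide gene promoters were rarely in the optimal list. It held a summit in the window of 2 of the 140 genes (1.43%, interval 0.393 to 5.06%), against 9.6% of all protein-coding genes. The 2 genes were ins-39 and nlp-4. None of the 31 flp genes had one, which allows a share of up to 9.68%. The nlp family had 1 in 71 (1.41%, interval 0.249 to 7.56%) and the ins family 1 in 38 (2.63%, interval 0.466 to 13.5%). The family intervals overlap widely, and the limit for the flp family and the interval for the ins family reach the level of all genes. The same 1 nlp and 1 ins gene, and no flp gene, were found among the 2445 highest-scoring regions of each replicate alone, against 9.31% of all genes in replicate 1 and 9.24% in replicate 2. With a window reaching 2000 bp upstream 4 members had an optimal summit, and with one from 500 bp upstream to 100 bp downstream 1 had.

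The region of ins-39 (WBGene00017668, chromosome X, 1343758 to 1344421, minus strand) was the strongest of the set. Its summit lay 619 bp upstream of the gene start in intergenic sequence. The score was 436.4 in the pooled list, where it ranked 137 of 28191. Replicate 1 gave a score of 220.3 at rank 175, and replicate 2 a score of 212.2 at rank 112. The summits of the 2 replicates lay 10 bp apart. The nearest other coding gene start, that of ttr-37, was 7865 bp away, and the nearest tRNA start 34634 bp away. A second pooled summit in the same window had a score of 31.0 and ranked 20452.

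The region of nlp-4 (WBGene00003742, chromosome I, 10517321 to 10518055, minus strand) was weaker and is shared with a neighbour. Its summit lay 54 bp upstream of the nlp-4 start, in a region from 10517904 to 10518313 with a pooled score of 131.5 at rank 1210. It ranked 1004 in replicate 1 with a score of 83.6, and 1790 in replicate 2 with a score of 46.7. The replicate summits were 3 bp apart. The divergent gene exos-3, which encodes a subunit of the RNA exosome, starts 270 bp from the summit and inside the nlp-4 window. Whether the region belongs to one gene or to both was not tested. Among the 128 members whose window holds no other coding gene start, only ins-39 had an optimal summit (0.781%), against 5.90% of all genes with such a window.

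**Figure D1:**
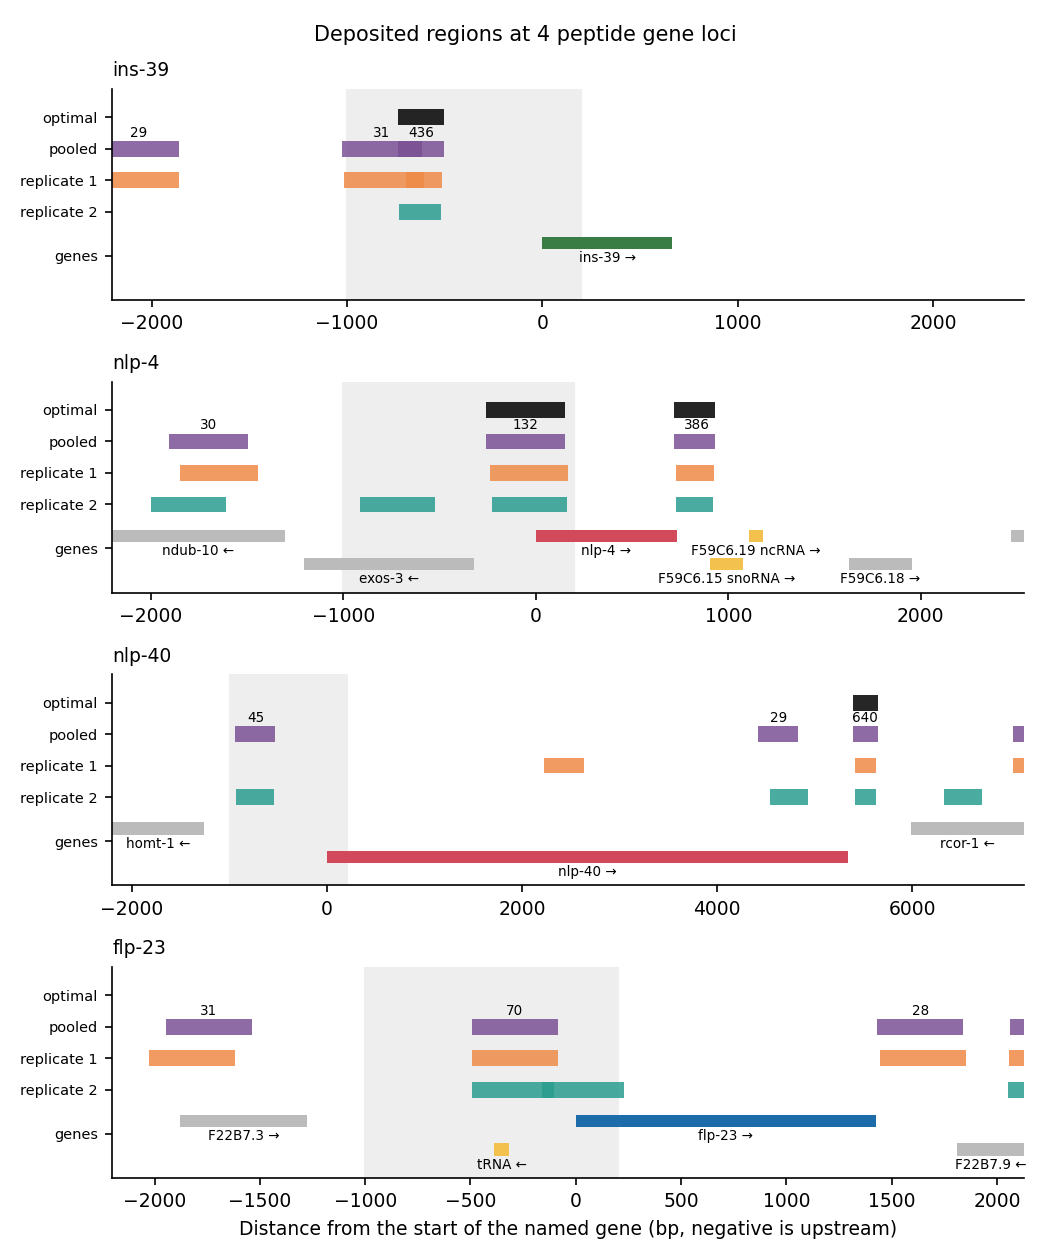
Deposited regions at 4 peptide gene loci, drawn by distance in bp from the start of the named gene, which is always read left to right; rows give the optimal, pooled and replicate lists and the annotated genes, numbers are pooled scores rounded to whole numbers, the grey band is the promoter window, arrows give the strand relative to the named gene and yellow boxes are small RNA genes. The optimal region of ins-39 stands alone upstream of the gene, nlp-4 has one at its start beside exos-3 and one past its end, nlp-40 has its strong region past its end, and the region of flp-23 lies over a tRNA gene and below the optimal threshold.

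Over the whole pooled list, weak regions included, the families were again lower in share than other genes. The pooled list held a summit for 37 members (26.4%, interval 19.8 to 34.3%), against 38.1% of all protein-coding genes. By family this was 7 flp genes (22.6%, interval 11.4 to 39.8%), 20 nlp genes (28.2%, interval 19.04 to 39.5%) and 10 ins genes (26.3%, interval 15.0 to 42.0%). The interval of each family covers the shares of the other families, and those of the flp, nlp and ins genes each reach that of all genes. Replicate 1 held a summit for 6 flp, 22 nlp and 11 ins genes, 39 in all (27.9%), against 39.4% of all genes. Replicate 2 held one for 6 flp, 13 nlp and 10 ins genes, 29 in all (20.7%), against 35.3% of all genes. The nlp count was thus the one that differed most between the replicates. For 84 members (60%), namely 20 flp, 43 nlp and 21 ins genes, no list held a summit in the window, against 49.4% of all protein-coding genes.

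**Figure D2:**
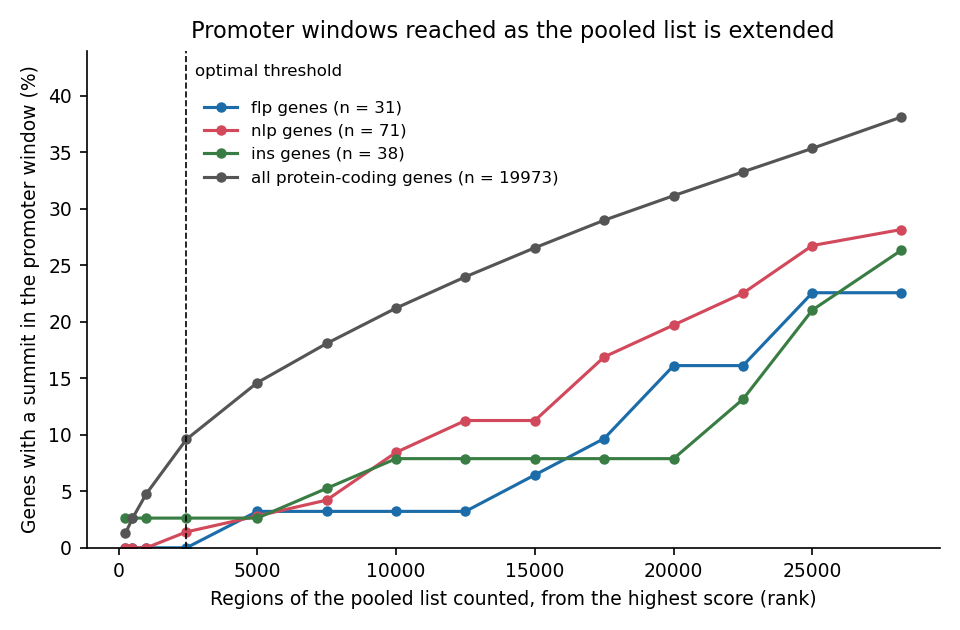
Percentage of genes with a summit in the promoter window (y axis) as the pooled list is read from its highest-scoring region downward (x axis, number of regions), for the 3 families and for all protein-coding genes; the dashed line is the optimal threshold. All protein-coding genes reach 9.6% at the threshold and 38.1% at the end of the list, while each family stays lower at the threshold. Each set gains most of its genes below the threshold, but the families gain them lower in the list. By rank 15000 all protein-coding genes reach 26.6%, and flp, nlp and ins genes 6.5%, 11.3% and 7.9%.

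The regions at members lay low in the pooled list. The median score of the best summit was 33.2 for the 37 members that had one, against 44.8 for the 7614 such protein-coding genes. As a percentile of the list, the median was 37.8 for members and 70.8 for all genes. It was 34.0 for flp, 42.7 for nlp and 21.5 for ins genes. The best summit was below the middle of the list, at or under the 50th percentile, for 25 of the 37 members (67.6%), against 32.7% of all genes with one. As a share of all genes, a best score under 35 was found for 16.4% of members and 11.03% of protein-coding genes. A best score from 50 to the optimal threshold was found for 2.14% of members and 6.75% of protein-coding genes. The order of the families was not stable between replicates. In replicate 1 the median percentiles were 53.7 for flp, 43.8 for nlp and 22.8 for ins genes, and in replicate 2 they were 39.5, 59.5 and 33.4 in the same order. Over all members the median was 40.8 in replicate 1 and 58.4 in replicate 2, against 69.4 and 69.8 for all genes. The ins genes had the lowest median in each of the 3 lists.

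**Figure D3:**
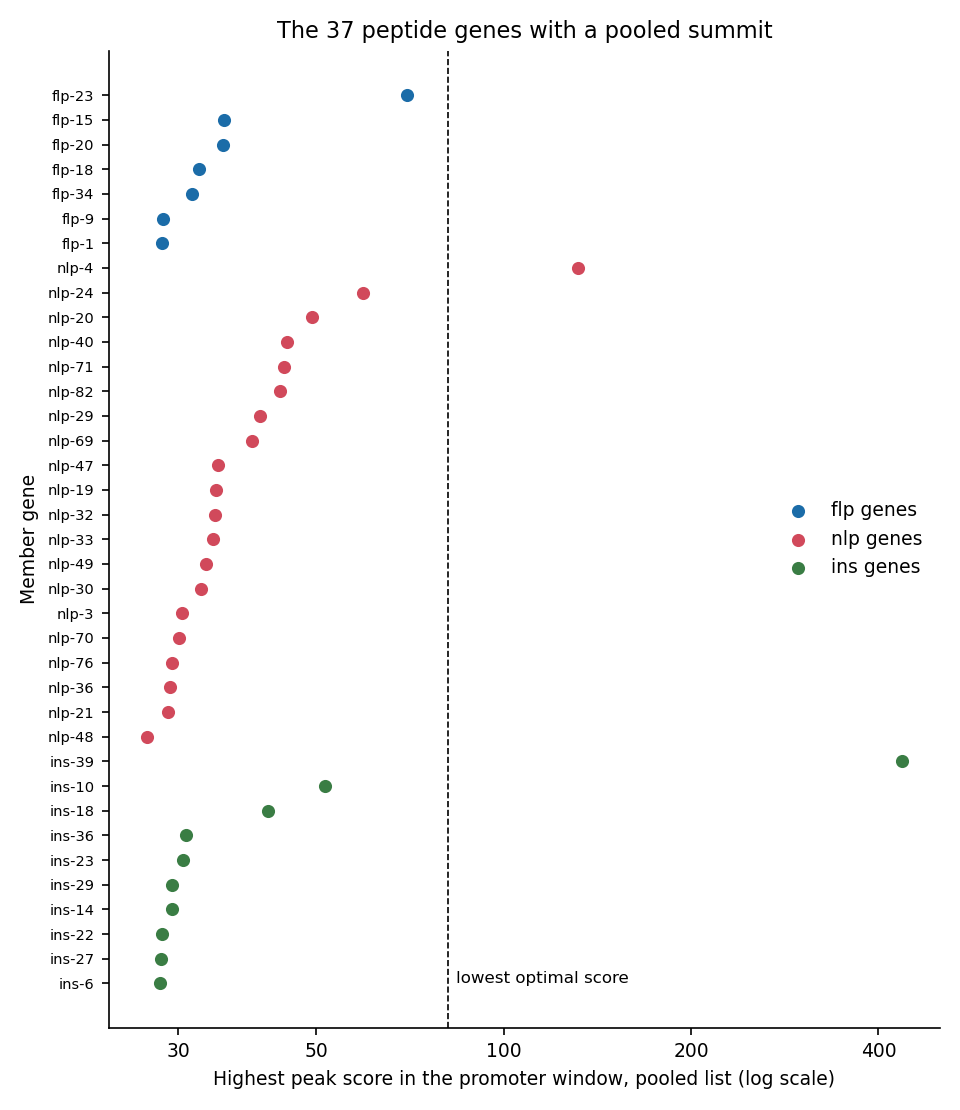
Score of the highest pooled summit in the promoter window (x axis, log scale) for each of the 37 members that have one, ordered within family; the dashed line is the lowest score of the optimal list, 81.4. Only nlp-4 and ins-39 lie right of the line, and 23 of the 37 genes lie under a score of 35.

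Among the flp genes, flp-23 stood highest. Its summit 290 bp upstream of the start (gene at chromosome III, 8650767 to 8652194, plus strand) had a pooled score of 69.9 at rank 3144, and ranked 2780 in replicate 1 and 4826 in replicate 2. The replicate summits were 6 bp apart, and a tRNA gene on the other strand starts 25 bp from the pooled summit. The part of the tRNA gene in this signal was not tested. Only flp-23 and flp-34 had a window summit in both replicates. The summit of flp-34 scored 31.6 at pooled rank 19635, and ranked 13837 in replicate 1 and 16659 in replicate 2.

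The other flp genes with a pooled summit were seen in at most 1 replicate window. The summit of flp-15 was 25 bp upstream with a score of 35.5, and was matched in replicate 2 at rank 9319. The summit of flp-20, a gene expressed in touch receptor neurons, was 980 bp upstream with a score of 35.4, and was matched in replicate 1 at rank 11067. A gene for peptides that act on NPR-type receptors, flp-18, had a score of 32.4 at rank 18611 and ranked 15526 in replicate 1. The locomotion gene flp-1 had a score of 28.2 at rank 24905 and ranked 13964 in replicate 1, with its summit 586 bp upstream in an intron of daf-10. The summit of flp-9, with a score of 28.3, lay in no region of either replicate. The sleep-promoting gene flp-11 had no summit in any of the 4 lists.

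Among the nlp genes below the threshold, nlp-24 was highest. It is one of the 11 genes nlp-24 to nlp-34, which include genes for glycine-rich peptides of epidermal defence against infection. Its summit 181 bp upstream of the start (gene at chromosome V, 11616376 to 11616828, plus strand) scored 59.4 at pooled rank 4212, and ranked 4262 in replicate 1 and 7204 in replicate 2, with 8 bp between the replicate summits. The fungus-induced gene nlp-29 scored 40.5 at rank 10621 with its summit 151 bp upstream, and ranked 4877 in replicate 1 with no window summit in replicate 2. Of the 11 genes, 5 had a pooled summit (45.5%, interval 21.3 to 72.0%, against 38.1% of all genes). In replicate 1 there were 6 with one (54.5%, interval 28.0 to 78.7%, against 39.4%). These 2 intervals cover the shares of all genes. In replicate 2 there were 2 (18.2%, against 35.3%), and 1 had one in both replicates (9.09%, against 25.6%). None had an optimal summit, which allows a share of up to 27.3%. The genes nlp-30, nlp-32 and nlp-33 had pooled scores of 32.7, 34.3 and 34.1, each with a window summit in replicate 1 and none in replicate 2.

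Other nlp genes had scores in the same range. The summit of nlp-20 scored 49.2 at rank 6439 and ranked 5639 in replicate 1 and 8419 in replicate 2. The summit of nlp-71 scored 44.3 at rank 8482 and ranked 15709 in replicate 1 and 10172 in replicate 2, with 18 bp between the replicate summits. The summit of nlp-82 scored 43.7 and ranked 19362 in replicate 1 and 6261 in replicate 2. The summit of nlp-69, in an intron of sec-23, scored 39.4 and ranked 9906 in replicate 1 and 10369 in replicate 2. The gene nlp-40, whose peptide is released from the intestine to time the defecation programme, had a summit 734 bp upstream that scored 44.8 at rank 8238. It was matched in replicate 2 at rank 7239 and not in replicate 1, and the start of the neighbouring homt-1 lay nearer, at 531 bp. The cholecystokinin-like gene nlp-12 had no pooled summit and one in replicate 1 at rank 23871.

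The remaining nlp genes with a pooled summit scored from 26.7 at nlp-48 to 34.7 at nlp-47, which encodes a peptide related to gonadotropin-releasing hormone. The summit of nlp-47 lay 914 bp upstream, and was matched in replicate 2 at rank 18267 and not in replicate 1. Of these weaker genes only nlp-19 had a window summit in both replicates, with a pooled score of 34.5 and ranks of 28339 in replicate 1 and 10100 in replicate 2. The pooled score of nlp-3, a peptide gene of the egg-laying circuit, was 30.4, and it was matched in replicate 1 at rank 25882. The scores of nlp-49, nlp-70, nlp-76, nlp-36 and nlp-21 were 33.2, 30.04, 29.3, 29.1 and 28.9, each with a window summit in 1 replicate.

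Among the ins genes below the threshold, only ins-10 scored above 50. Its summit 779 bp upstream of the start (gene at chromosome V, 14033949 to 14034396, plus strand) had a score of 51.7 at rank 5729, and ranked 9463 in replicate 1 and 3680 in replicate 2. The replicate summits were 154 bp apart. The summit of ins-18, a putative DAF-2 antagonist, scored 41.8 and ranked 26731 in replicate 1 and 8713 in replicate 2. The other 7 ins genes with a pooled summit, ins-36, ins-23, ins-29, ins-14, ins-22, ins-27 and ins-6, had scores from 28.0 to 30.8, which is near the floor of the list at 26.5.

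A few well-studied insulin-like genes were looked up whatever their values. The DAF-2 agonist gene ins-6 had a score of 28.0 at rank 25313, with a window summit in each replicate at ranks 15280 and 15489. The agonist gene ins-7 had no pooled summit and one in replicate 2 at rank 21054. The insulin-like gene daf-28, which is outside the 3 name families, also had one in replicate 2 alone, at rank 19377. The antagonist gene ins-1 had no summit in any list. The replicate 2 summit of ins-13, at rank 5225 with a score of 26.8, was the highest-ranked summit of a member without a pooled one, and replicate 1 had none in that window.

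A further 19 members, 4 flp, 8 nlp and 7 ins genes, had a window summit in 1 replicate list and none in the pooled list. The share with a summit in at least 1 replicate list and none in the pooled list was 13.6% for members and 12.5% for all protein-coding genes. No member had one in both replicates without a pooled one. Apart from ins-13, the highest-ranked was nlp-81, 165 bp downstream of its start at rank 10043 of replicate 1. The others ranked 14877 or lower, among them flp-7 at 14877 and flp-6 at 15330 in replicate 2.

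The deposited −log10 q values, in which larger means stronger support, belong to the same pooled regions as the scores and are no separate check. Their median at the best summits was 0.0628 for members and 0.257 for all genes with one. The q values were 3.58 for ins-39 and for nlp-4, which is the highest value of the pooled list. They were 1.35 for flp-23, 0.769 for nlp-24 and 0.45 for ins-10, and no other member with a pooled summit was above 0.45. The 2 optimal members thus share the ceiling, and their scores, not their q values, tell them apart.

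The members are unevenly spread over the chromosomes. Chromosome X holds 34 of them, 13 flp, 19 nlp and 2 ins genes, and 7 of the 34 (20.6%) had a pooled summit, against 39.3% of the 2731 protein-coding genes of X. On chromosome II 3 of 28 members (10.7%) had one, against 30.6% of all its genes. On chromosome III 8 of 17 members (47.1%) had one, against 48.7% of all its genes, and on chromosome V 8 of 23 (34.8%), against 33.4%. On chromosome I 6 of 19 (31.6%) had one, against 43.0% (1237 genes), and on chromosome IV 5 of 19 (26.3%), against 39.4%. The shares of members were thus near those of all genes on III and V and lower on I, II, IV and X, with few genes behind each.

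Few members had a summit in both replicates, and the best summits of the 2 were often more than 50 bp apart. Both replicate lists held a window summit for 14 members (10%, interval 6.05 to 16.1%), against 25.6% of all protein-coding genes. They were 2 flp genes (6.45%), 7 nlp genes (9.86%) and 5 ins genes (13.2%). The best summits of the 2 replicates lay within 50 bp of each other for 5 of the 14 (35.7%), namely ins-39, nlp-4, flp-23, nlp-24 and nlp-71, against 53.3% of all genes with both. The median gap was 134 bp for members and 43 bp for all genes. Regions had a median width of 410 bp in replicate 1 and 390 bp in replicate 2, so such gaps can lie inside 1 region. Of the 14 genes, only ins-6 and ins-22 had a best pooled summit that was not inside a region of both replicates. Without genes whose best pooled summit is optimal, 3 of 12 members (25%) lay within 50 bp, against 35.7% of all such genes. Of the 35 members whose best pooled summit is below the optimal threshold, 11 (31.4%) had it inside a region of both replicates, against 45.9% of all such genes. Across the 14 genes Spearman's rho of the replicate scores was 0.70, and 0.52 across 12 without ins-39 and nlp-4. Across all 5114 genes with both it was 0.78, and 0.31 across the 3206 without an optimal best summit. The members' value was thus below that of all genes with optimal regions included and above it without them. These are descriptions across genes that share the same libraries.

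**Figure D4:**
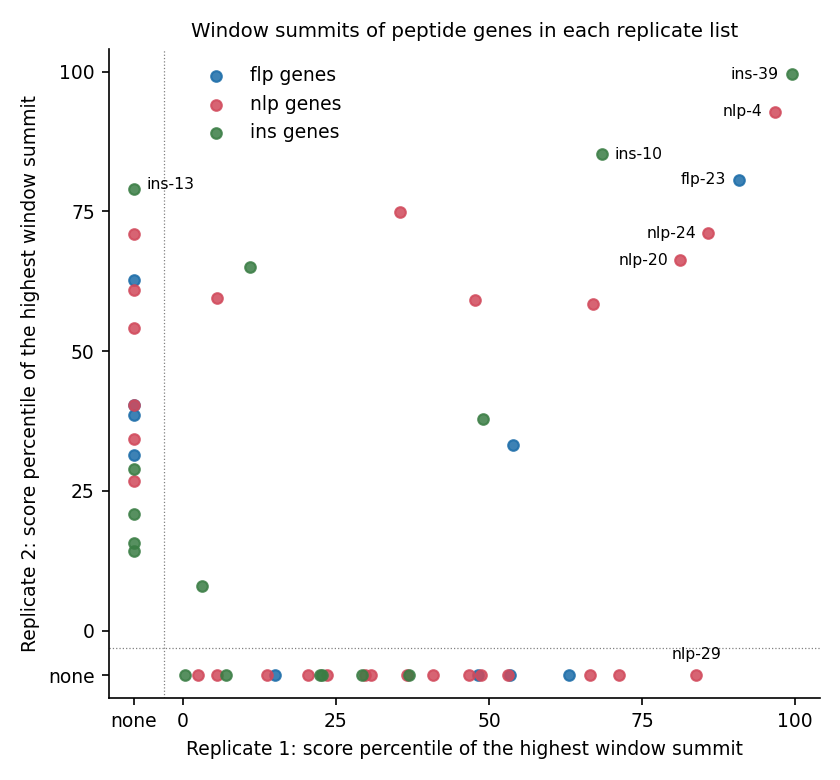
Score percentile within the replicate 1 list (x axis) and within the replicate 2 list (y axis) of the highest window summit of each member, with genes seen in 1 replicate alone placed at "none" on the other axis. The members highest in both lists are ins-39, nlp-4, flp-23, nlp-24, nlp-20 and ins-10, and 14 genes have a value on both axes.

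The best pooled summits of flp and ins genes lay farther from the gene start than those of all genes. Those of nlp genes lay at a similar distance to all genes. Of the 37 best pooled summits, 20 (54.1%) were from 500 to 1000 bp upstream, against 31.5% of the 7614 over all genes. A further 13 lay within 500 bp upstream and 4 lay downstream of the start, all 4 at nlp genes. The median position was 582 bp upstream for members and 295 bp upstream for all genes. It was 586 bp for flp, 304 bp for nlp and 720 bp for ins genes. The share from 500 to 1000 bp upstream was 71.4% for flp, 35% for nlp and 80% for ins genes. The 7614 genes include 1917 with an optimal summit, so summits of like score were not compared. Annotation put 30 of the 37 summits in intergenic sequence, 2 in introns, 4 in untranslated regions and 1 in a coding exon, that of nlp-70. Another coding gene started nearer to the summit than the member itself at nlp-33, ins-29 and nlp-40. The annotation and the nearer starts were not counted for all genes, so neither is shown to be particular to members.

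The genes' surroundings differ from those of other genes. The median distance from a member's start to the next gene upstream was 2522 bp, against 936 bp for all protein-coding genes. It was 5185 bp for flp, 2293 bp for nlp and 1927.5 bp for ins genes. Another coding start fell in the window of 12 members (8.57%), namely 7 nlp and 5 ins genes, against 21.3% of all genes. Among windows with no other start, the pooled list held a summit for 33 of 128 members (25.8%) and for 34.2% of all such genes. The pooled difference was smaller among these windows. An optimal summit was found in 0.781% of such member windows and 5.90% of all such windows. The part of gene spacing in these shares was not tested.

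**Figure D5:**
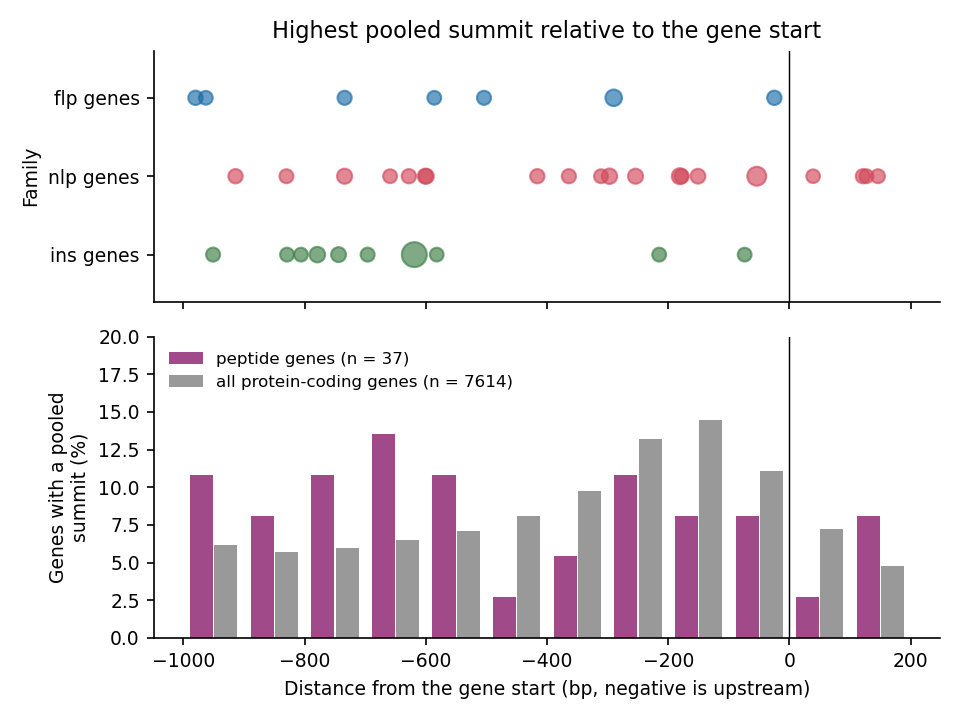
Position of the highest pooled summit relative to the gene start, in bp with upstream negative: by family with one point per gene and point area growing with the score (top), and as the percentage of genes with a pooled summit per 100 bp for members (n = 37) and for all protein-coding genes (n = 7614) (bottom). All genes peak between 100 and 200 bp upstream, while member summits are spread with more of them beyond 500 bp.

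Short sequence words were compared at summits below the optimal threshold, 37 for members and 6425 for all genes. The 5 words came from an earlier description of these regions and were looked for on both strands within 50 bp of each pooled summit in a window. The word GAGAGA was at 2 member summits (5.41%, against 8.84% for all genes), those of nlp-29 and flp-34. The word TTACA was at 4 (10.8%, against 21.04%), those of flp-23, nlp-24, nlp-3 and ins-14. No member summit held CGCGCG, which was at 1.28% of the summits of all genes. None held ACGCAG either, against 4.36% for all genes. The palindrome ACATGT was also at none, against 2.61% for all genes. A count of 0 of 37 allows a share of up to 8.11%, which is above each of these 3 values, so no difference in these words was detectable. The ins-39 region printed above holds none of the 5 words over its whole length, which says only that these letters are not there. Below the optimal threshold the mean GC content at summits was 34.6% for members and 35.5% for all genes. The promoter windows themselves had a median GC content of 35.4% for members and 34.97% for all genes.

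The genes that make and receive peptides were counted in the same way. Of 20 genes for peptide processing and release, 2 had an optimal summit (10%, against 9.6% of all protein-coding genes). A pooled one was found for 10 (50%, interval 29.9 to 70.1%, against 38.1%), and one in both replicates for 5 (25%, against 25.6%). The optimal and both-replicate shares were thus near those of all genes, and the interval of the pooled share covers that of all genes. The 2 with an optimal summit were ric-19 and rund-1. The dense-core vesicle maturation gene ric-19, whose window is shared with pmlr-1, had a score of 111.5 and ranks of 2063 and 1154 in replicates 1 and 2. In the same pathway, rund-1 had a score of 81.6 at pooled rank 2439, just above the threshold, and ranks of 1906 and 4153. The carboxypeptidase gene egl-21 scored 63.7 at pooled rank 3692, with ranks of 12553 in replicate 1 and 3047 in replicate 2. The proprotein convertase gene egl-3 scored 44.3 at rank 8502, and unc-31, needed for dense-core vesicle release, had a summit in replicate 1 alone at rank 23822.

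Of 101 receptor genes 1 had an optimal summit (0.99%, against 9.6% of all protein-coding genes), 26 a pooled one (25.7%, against 38.1%) and 13 one in both replicates (12.9%, against 25.6%). The optimal one was npr-23, with a score of 83.5 and ranks of 1904 in replicate 1 and 2404 in replicate 2, near the threshold. The next were npr-3 at 58.6 and npr-19 at 56.0, and the insulin receptor gene daf-2 had no pooled summit. Of 8 related peptide genes with other names, such as pdf-1 and daf-28, none had an optimal summit, which allows a share of up to 37.5%, and 2 had a pooled one (25%, against 38.1% of all genes), lury-1 at 45.4 and trh-1 at 39.8. The pooled share of the receptor genes thus lay inside the interval of the peptide genes, 19.8 to 34.3%.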

How the data were processed

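The data are region lists from IRX-1-eGFP chromatin immunoprecipitation of whole L1 larvae, 1 group with 2 replicates that the labels call biological. The authors deposited, per the file headers and notes, permissive region lists that include background, 1 per replicate and 1 for the pooled replicates, and an optimal list thresholded on the irreproducible discovery rate. For the peak caller, aligner and cutoff, names and versions were not given in the sources used here. The deposited peak score has no stated formula. The deposited −log10 q values were read but rank nothing here. The deposited summit offset was added to the region start. Lists on another build were not used.

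Gene starts came from Ensembl release 115 (WBcel235, the assembly ce11 names) and sequence from RefSeq. All region and gene ends lay within the RefSeq chromosome lengths. A summit in several windows counted for each gene. Python 3.11.15, numpy 2.4.6, pandas 2.3.3, scipy 1.17.1 and matplotlib 3.10.9 were used, and the assignment of summits was checked on simulated data. Shares have 95% Wilson intervals, and a count of 0 is given the limit of 3 counts. A percentile is the share of a list at or below a score. No per-region read counts were used, so depth and its precision are unknown.

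Named genes were members with an optimal summit, the 8 highest-scoring per family in the pooled list, 10 well-known peptide genes, genes of the processing, receptor and related lists with an optimal summit plus egl-3, egl-21, unc-31 and daf-2, and neighbours nearest to an optimal summit. Other named genes (the lower-scoring nlp genes, ins-27, members seen in 1 replicate alone, neighbours of weaker summits, npr-3, npr-19, lury-1 and trh-1) were added after their values were seen. The set nlp-24 to nlp-34 was not among the planned sets. Of the list entries, rab-2, nmur-4, tyra-1, seb-2 and lgr-1 matched no protein-coding gene name. The members, lists and words were chosen with earlier results of these data known.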

Additional observations from a re-analysis of the deposited data

How the results depend on the processing

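Of 112 values under other settings, 77 stayed within 1.5 times the count or within a spread of the median reported, and 35 moved. That spread was the standard deviation of the 2 medians found with 1 replicate left out. Whether those 2 medians stayed or moved is therefore not independent of it. Windows and thresholds change the counts by construction. With 500 bp upstream and 100 bp downstream, an optimal summit was found for 0 ins genes and 1 member in all, a pooled one for 2 flp, 10 nlp and 2 ins genes and 14 in all, and one in both replicates for 1 flp and 1 ins gene and 7 in all. With 2000 bp upstream, the optimal count was 3 for nlp and 4 in all, the pooled count 14 for flp and 56 in all, and that in both replicates 6 for flp, 14 for nlp and 26 in all. The median percentile of flp genes was 68.0 with the narrow window (n = 2) and 46.9 with the wide one (n = 14). Without windows that hold another start, the optimal count was 0 for nlp and 1 in all. Above the middle of the lists by score, pooled counts were 1 flp, 8 nlp, 3 ins and 12 in all, and counts in both replicates 1, 4, 2 and 7 in the same order. Counting any base of a region gave 4 flp and 11 nlp genes in both replicates. Leaving out a replicate meant reading the deposited list of the other one, so these are single-replicate values and no separate check. The nlp count was 13 to 22 in place of the 20 pooled ones, lowest without replicate 1. Median percentiles were 39.5 to 53.7 for flp, 43.8 to 59.5 for nlp, 22.8 to 33.4 for ins and 40.8 to 58.4 for all members. The cause of these differences was not tested. In every setting run the members' share was below that of all protein-coding genes for optimal, pooled and both-replicate counts over all 140 genes. Leaving out a replicate could not be done for the count in both. No paired analysis was possible because there is only 1 group. Families of 31 to 71 genes give wide intervals, and unknown depth means that a missing summit is no sign of absent binding.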

Other observations

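Outside the promoter windows, few peptide gene loci held an optimal IRX-1-eGFP region. An optimal summit lay within 1000 bp past the end of 6 members (4.29%, interval 1.98 to 9.03%). The interval covers the share of all protein-coding genes, 2.93%. The zones around a gene differ in length, so their counts are not compared with each other. From 1000 to 5000 bp upstream of the start there was one at 3 members (2.14%), against 9.76% of all genes, and in the gene body beyond 200 bp at 1 (0.714%), against 2.32%. The gene body zone follows gene length, which was not matched between members and all genes. The distance to the next gene upstream was not matched either, with medians of 2522 bp for members and 936 bp for all genes.

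Of the regions past an end, that of the intestinal peptide gene nlp-40 scored 640.2 at pooled rank 50, and ranked 59 in replicate 1 and 46 in replicate 2. It lay 177 bp past the gene, and no small RNA gene or other coding gene start was within 5000 bp. Past ins-13 there were regions at 950 bp (score 847.1, rank 18) and 747 bp (score 481.6, rank 111), 36 and 167 bp from the start of the spliced leader RNA gene sls-2.2. Past ins-37 one lay at 533 bp with a score of 426.5, 937 bp from the nearest other coding start. Past nlp-4 one lay at 100 bp with a score of 385.5, 71 bp from a snoRNA gene start. Past nlp-15 one lay at 315 bp with a score of 366.8, 13 bp from the start of the splicing factor gene smu-1. Past flp-16 one lay at 622 bp with a score of 144.5, 132 bp from the start of romo-1.

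The upstream regions scored 131.1 at nlp-76 (20 bp from a tRNA gene start, inside nhr-17), 116.5 at nlp-71 (109 bp from the start of exos-2) and 93.6 at nlp-36 (inside bre-3, 4920 bp upstream of the nlp-36 start). The gene body region of nlp-11 scored 86.7 at rank 2231. The part of the neighbouring genes in these regions was not tested. These genes were named for having an optimal region outside the window, after their values were seen.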
